A study of Mus musculus with 8 samples.

Results

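The p24 proteins and the KDEL receptors are membrane proteins that shuttle between the endoplasmic reticulum (ER) and the Golgi. Their transcripts were compared between mouse adipocytes given spliced XBP1 and adipocytes given green fluorescent protein. The genes considered were 8 p24 genes (Tmed1, Tmed2, Tmed3, Tmed4, Tmed5, Tmed7, Tmed9 and Tmed10) and 2 KDEL receptor genes (Kdelr2 and Kdelr3). They were chosen by family membership, and a probe set was assigned to a gene where the platform annotation gave that gene as its only symbol. By this rule 8 of the 10 genes were measured, 6 p24 genes and both listed KDEL receptors, on 15 of 22626 probe sets, among 12393 genes in all. Tmed1 and Tmed2 had no probe set of that kind and are described separately. Kdelr1, Tmed6, Tmed8 and Tmed11 also belong to these families but were not on the list.

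Total RNA was hybridised to 8 Affymetrix arrays, 1 for each sample. The 4 sXBP1 samples were cultured adipocytes infected with an adenovirus expressing spliced XBP1, the active transcription factor made when the kinase and nuclease IRE1 splices Xbp1 mRNA during ER stress. The 4 GFP samples were the same kind of cells infected with an adenovirus expressing GFP. All 8 samples therefore carried an adenovirus, and none was uninfected. In both groups cells were infected on day 6 to 8 of differentiation and harvested 4 to 6 days later, and the labels give these days only as ranges. The labels name F442A as the adipocyte line in one field and 3T3L1 in another, with Swiss as the strain background of every sample; both are fibroblast lines that store fat once differentiated. Nothing in the labels says that the replicates are separate cultures, and the p-values cover only the spread among these 8 samples, part or all of which could be technical.

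The p24 proteins span the membrane once and fall into alpha, beta, gamma and delta classes, whose members assemble into mixed complexes. Their lumenal part helps to select cargo, such as proteins held by a glycosylphosphatidylinositol (GPI) anchor, for export in COPII-coated vesicles, and their short cytosolic tail binds coat proteins, including the COPI coat of vesicles that return from the Golgi. KDEL receptors bind the carboxy-terminal KDEL-type signal of ER chaperones that have escaped to the Golgi and bring them back to the ER in COPI-coated vesicles. XBP1 is a textbook regulator of secretory pathway genes, and the DNA elements it binds include ones built around an ACGT core.

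The upstream sequence of the members is shown first, because ACGT-containing elements are among those through which XBP1 is known to act. Promoter windows of 250 bases before to 50 bases after the annotated start (RefSeq, GRCm38.p6) were given for 7 of the 10 members, and Tmed2, Tmed7 and Kdelr2 had no entry. Each window was searched on both strands for CCACGT, for TGACGTGG, whose reverse complement contains CCACGT, for the ER stress response element (ERSE: CCAAT, a gap of 9 bases, CCACG) and for ERSE-II (ATTGG, a gap of 1 base, CCACG). Of the 5 stretches printed below, 4 hold a match, which is in capitals, and that of Tmed4 holds none. The windows of Tmed1 and Tmed5, which also hold none, are not printed. Each is 120 bases long and is written on the strand of the gene.
Kdelr3, chr15:79516288-79516407, plus strand, positions -120 to -1: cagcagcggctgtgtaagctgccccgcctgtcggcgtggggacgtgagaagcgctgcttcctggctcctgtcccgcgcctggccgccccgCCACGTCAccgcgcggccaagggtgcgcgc
Tmed3, chr9:89705174-89705293, minus strand, positions -250 to -131: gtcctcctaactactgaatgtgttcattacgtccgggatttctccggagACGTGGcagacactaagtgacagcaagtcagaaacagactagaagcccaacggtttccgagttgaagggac
Tmed9, chr13:55593017-55593136, plus strand, positions -118 to 2: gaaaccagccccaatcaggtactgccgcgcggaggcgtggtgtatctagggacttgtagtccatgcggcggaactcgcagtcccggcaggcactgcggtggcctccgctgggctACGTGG
Tmed10, chr12:85374718-85374837, minus strand, positions -120 to -1: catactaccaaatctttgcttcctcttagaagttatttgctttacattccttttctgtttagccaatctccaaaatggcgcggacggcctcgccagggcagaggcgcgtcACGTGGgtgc
Tmed4, chr11:6274838-6274957, minus strand, positions -120 to -1: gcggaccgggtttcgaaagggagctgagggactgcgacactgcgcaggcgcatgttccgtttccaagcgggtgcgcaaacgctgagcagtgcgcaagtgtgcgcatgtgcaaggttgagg

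CCACGT was found in the windows of 4 of these 7 members, Kdelr3, Tmed3, Tmed9 and Tmed10. A gene can have more than 1 window, and the 7 members had 8. Counted by window, CCACGT was in 8.31% of all 32851 windows of this length. Counted by gene, it was in 1231 of the 9887 measured genes with a window. In Kdelr3 it lay at positions -30 to -25 and was part of the only TGACGTGG match among the members, at -30 to -23. TGACGTGG was found in 0.676% of all windows. Tmed3 had CCACGT at -201 to -196 and again at 31 to 36, Tmed9 had it across the start at -4 to 2, and Tmed10 had it at -10 to -5. The windows of Tmed1, Tmed4 and Tmed5 held none of the 4 motifs, and no member's window held the ERSE or ERSE-II, which were found in 0.119% and 0.0365% of all windows. Tmed5, without a match, rose in sXBP1 cells by a log2 change of 0.37 on its brightest probe set, and Tmed1 and Tmed4 did not pass. Among the 1231 measured genes with CCACGT in the window, 20.8% rose in sXBP1 cells and the median log2 change was 0.03. Among the 103 with TGACGTGG, 31.1% rose and the median was 0.11, and among all 9887 measured genes with a window, 13.4% rose and the median was -0.01. The ERSE was in the windows of 18 measured genes, of which 44.4% rose (median 0.26), and ERSE-II in those of 8, of which 62.5% rose (median 0.43). A match is a run of letters, not a shown binding site, and its absence concerns these letters in this window only.

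Signals are MAS5 values on a linear scale. Changes are sXBP1 minus GFP on the log2(signal + 16) scale after quantile normalization, with a standard error (SE), and were tested with limma, with Benjamini-Hochberg adjustment over all 22626 probe sets and a threshold of 0.05. The probe set with the highest mean signal represents each gene. On this footing 6 of the 8 measured members rose in sXBP1 cells (Tmed3, Tmed9, Kdelr3, Tmed5, Kdelr2 and Tmed10), 0 fell (also 0 at an unadjusted p under 0.05), and Tmed4 and Tmed7 did not pass. The 4 measured family genes outside the list, Kdelr1, Tmed6, Tmed8 and Tmed11, did not pass here. Of all 12393 genes, 12.9% rose and 14.4% fell. With the deposited values not normalized again, 34.6% of the genes that passed were higher, against 47.3% here and 61.4% after median centring of each array. The median change of the 8 members was 0.29, against -0.01 over all genes. All 4 sXBP1 arrays lay above all 4 GFP arrays, in normalized values, for those 6 members and for 14.1% of all genes. Of the members' 15 probe sets 9 rose, against 11.5% of all probe sets, and the other 6 missed the threshold. No filter on dim signal was applied, and 13 of the 15 were called present on all 8 arrays.

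**Figure D1:**
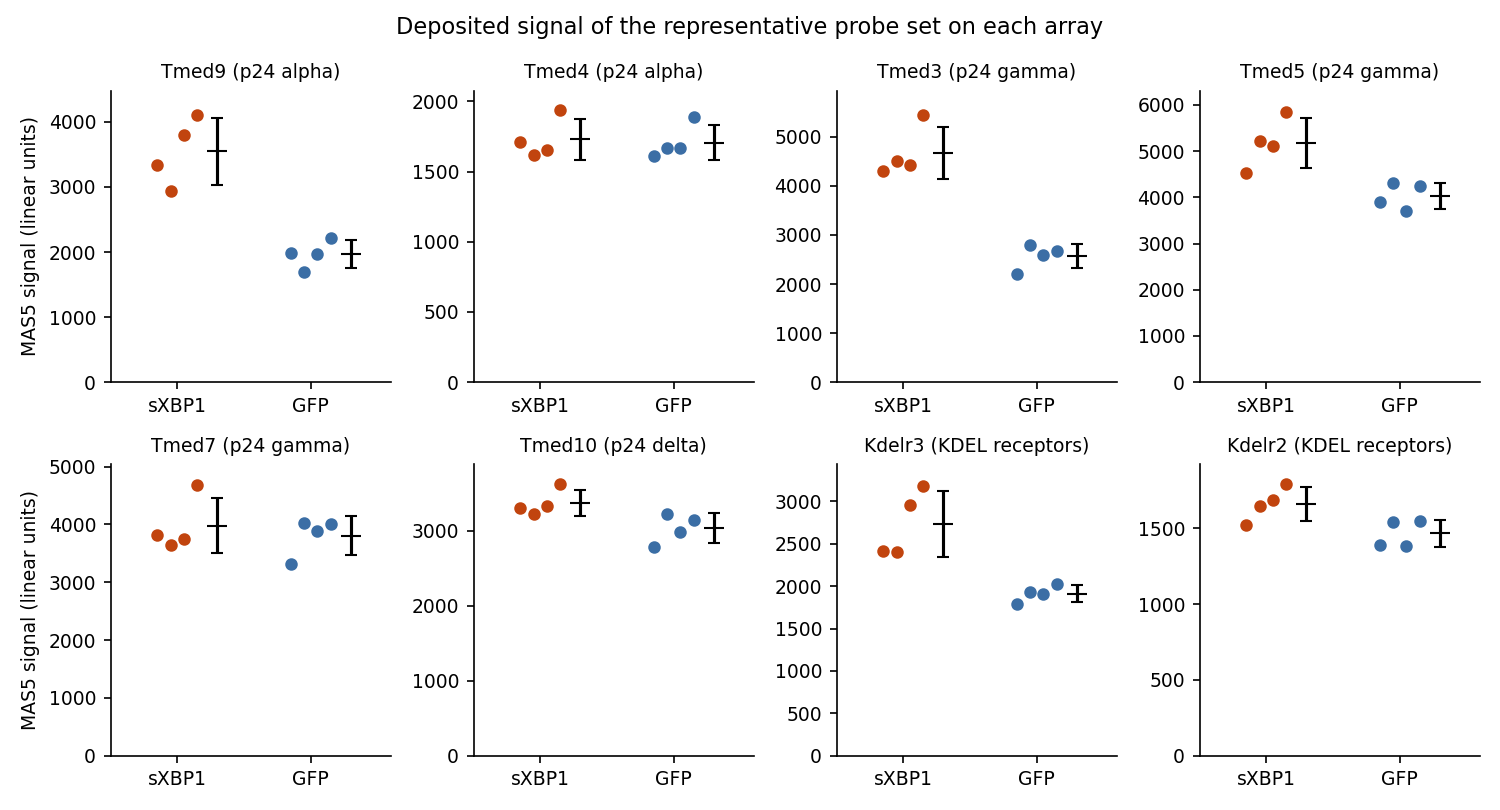
Deposited MAS5 signal (vertical axes, linear units, from 0) of the representative probe set of each measured member on the 4 sXBP1 arrays (orange) and the 4 GFP arrays (blue), with the mean and SD of each group beside the points (n = 4 each). The sXBP1 points of Tmed9, Tmed3, Tmed5 and Kdelr3 all lie above the GFP points, while those of Tmed4, Tmed7, Tmed10 and Kdelr2 overlap with them.

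Several cell and RNA measures differed between the same arrays. Median signal ranged over 117.3 to 139.6 on sXBP1 arrays and 135.0 to 153.9 on GFP arrays (exact permutation, two-sided, p = 0.0857). The sXBP1 arrays were also not all alike. Arrays 1 and 2 had a Pearson's r of 0.9942 and arrays 3 and 4 of 0.9918, against 0.9888 to 0.9905 across these pairs. With the GFP arrays, sXBP1 arrays 1 and 2 had r of 0.9755 to 0.9781, and arrays 3 and 4 of 0.962 to 0.9651. RNA integrity, read from the ratio of 3′ to 5′ signal of Gapdh, stood at 0.783 ± 0.0129 in sXBP1 samples and 0.816 ± 0.00451 in GFP samples (SD, n = 4 each; exact permutation, two-sided, p = 0.0286, which is the floor for 4 against 4). Of 12 adipocyte markers 10 were measured and all were called present on at least 1 array; 8 fell in sXBP1 cells and 2 did not pass, with a median change of -0.62 and a summed signal of 53263 to 63954 in sXBP1 and 66914 to 72854 in GFP samples. Of 12 preadipocyte and fibroblast markers 6 fell and the other 6 did not pass, with a median of -0.15. After median centring 4 fell and 1 rose, with a median of -0.03, and with the mean of all probe sets 8 fell and 2 rose. Of 18 macrophage and leukocyte markers 4 rose (Cd14, Cd68, Lyz2 and Csf1r), and 10 were present on no array, among them Ptprc and Itgam. Adgre1 was present on all 8 arrays, with a signal of 44.6 ± 9.62 in sXBP1 and 53.0 ± 7.43 in GFP samples (SD, n = 4 each; limma adjusted p = 0.667). The summed signal of that list was 2295.5 to 4433.7 in sXBP1 and 922.6 to 1062.4 in GFP samples. The part of these differences in the members' changes was not tested, and in bulk RNA fewer cells of a type cannot be told apart from less RNA per cell. Xbp1 itself had a signal of 10320 ± 417 in sXBP1 and 9888 ± 283 in GFP samples (SD, n = 4 each), a log2 change of 0.07 ± 0.04 (SE; limma adjusted p = 0.271; 0.0307 after median centring). The other Xbp1 probe sets changed by -0.02, 0.06 and 0.08 and did not pass (limma adjusted p = 0.844, 0.744 and 0.279). Whether its probe sets match the sequence carried by the virus was not analysed here.

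The alpha class has 2 members on the list, and they differed from each other. Tmed9, an alpha-class p24 protein of the early secretory pathway, had signals of 3331, 2946, 3797 and 4108 in the sXBP1 samples, against 1993, 1691, 1963 and 2214 in the GFP samples. Its lowest sXBP1 sample was above its highest GFP sample. The log2 change was 0.88 ± 0.11 (SE; 95% interval 0.64 to 1.12; limma adjusted p = 2.5e-04), which is 1.84-fold on this scale. The other Tmed9 probe set gave 2017, 1931, 1827 and 2424 in sXBP1 and 1312, 1324, 1154 and 1335 in GFP samples, again without overlap, and a change of 0.71 ± 0.07 (limma adjusted p = 3.6e-05).

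Tmed4, the other alpha-class gene, had signals of 1713, 1621, 1652 and 1943 in sXBP1 samples, against 1608, 1666, 1666 and 1888 in GFP samples. The groups overlapped over most of their range, and the change was 0.07 ± 0.05 (95% interval -0.05 to 0.19; limma adjusted p = 0.431). A second Tmed4 probe set was dim, with signals of 11.3 to 21.8 in sXBP1 and 13.1 to 34.3 in GFP samples, with present calls on 3 of 4 arrays in each group. Its change was -0.35 ± 0.18 (limma adjusted p = 0.218), and the mean of both probe sets changed by -0.14. The change of Tmed9 exceeded that of Tmed4 by 0.81 ± 0.09 (SE of the difference; two-sided exact permutation p = 0.0286, adjusted over 5 pairs p = 0.0357), and the per-array difference did not overlap between groups.

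The beta class has a single gene, Tmed2, whose product pairs with that of Tmed10. The 6 probe sets annotated to Tmed2 are each also annotated to Gm10698, so signal from these 2 genes cannot be told apart here. All 6 were higher in sXBP1 cells, by 0.38 to 0.83. The brightest gave 11571, 12554, 12685 and 12562 in sXBP1 and 8983, 9965, 9535 and 9451 in GFP samples, without overlap, and a change of 0.38 ± 0.04 (limma adjusted p = 8.0e-05). The one with the highest change gave 4816, 4947, 4349 and 5554 in sXBP1 and 2668, 3037, 2681 and 2847 in GFP samples, and a change of 0.83 ± 0.05 (limma adjusted p = 1.8e-06).

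The gamma class is the most numerous here, and its changes spread over the range of the family. Tmed3 had signals of 4301, 4504, 4416 and 5445 in sXBP1 samples, against 2213, 2788, 2594 and 2669.7 in GFP samples. The groups were far apart, with the lowest sXBP1 sample well above the highest GFP sample. The change was 0.89 ± 0.05 (95% interval 0.78 to 0.998; limma adjusted p = 1.9e-06), or 1.85-fold, the largest among the representative probe sets of the members, next to that of Tmed9, and rank 251 among the changes of all 12393 genes, from the highest down.

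Tmed5, another gamma-class p24 gene, had signals of 4529, 5220.0, 5106 and 5846 in sXBP1 samples and 3891, 4304, 3709.7 and 4236 in GFP samples on its brightest probe set. These did not overlap, and the change was 0.37 ± 0.06 (95% interval 0.25 to 0.50; limma adjusted p = 7.9e-04). Its second probe set gave 955, 1083, 988 and 1706 in sXBP1 and 988, 1367, 1056 and 1073 in GFP samples. There the groups overlapped, only the fourth sXBP1 sample was high, and the change was 0.10 ± 0.13 (limma adjusted p = 0.666). With the mean of both probe sets in place of the brightest, Tmed5 changed by 0.23 and did not pass (limma adjusted p = 0.0525).

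Tmed7, also of the gamma class, had 4 probe sets, which did not give the same result. The brightest gave 3824, 3649.8, 3749 and 4691 in sXBP1 and 3308, 4022, 3888 and 4001 in GFP samples, which overlapped, with a change of 0.08 ± 0.05 (95% interval -0.04 to 0.20; limma adjusted p = 0.326). After median centring it changed by 0.21 and passed (limma adjusted p = 0.0427). A second bright probe set gave 2985, 3397, 2788 and 4255 in sXBP1 and 2977, 3845, 3957 and 3967 in GFP samples, with a change of -0.11 ± 0.09 (limma adjusted p = 0.457). One more gave 344, 399, 415 and 429.9 in sXBP1 and 355, 346, 356 and 311 in GFP samples and was higher, by 0.31 ± 0.10 (limma adjusted p = 0.0405), although its first sXBP1 sample lay within the GFP range. The fourth was called present on no array.

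Tmed1, the remaining gamma-class gene, was identified only through the description of a probe set in the authors' deposited table. That probe set gave 705, 664, 639 and 719 in sXBP1 samples, against 613, 782, 705 and 707 in GFP samples. The sXBP1 values fell inside the GFP range, and the change was 0.05 ± 0.06 (95% interval -0.08 to 0.18; limma adjusted p = 0.633).

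Within the gamma class the change of Tmed3 exceeded that of Tmed7 by 0.80 ± 0.03 and that of Tmed5 by 0.52 ± 0.07 (SE of the difference; two-sided exact permutation p = 0.0286 each, adjusted over 5 pairs p = 0.0357). Neither per-array difference overlapped between groups, and 0.0286 is the smallest p that this test allows for 4 against 4 samples. Tmed7 differed from Tmed5 by -0.29 ± 0.09 (exact permutation p = 0.0571, adjusted p = 0.0571), which did not pass and overlapped between groups. It passed with the deposited values and after median centring (adjusted p = 0.0286, difference -0.29 in both).

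Tmed10, the delta-class gene and the partner of Tmed2, had signals of 3301, 3224, 3327 and 3629.7 in sXBP1 samples, against 2779, 3225, 2989.7 and 3147 in GFP samples. As deposited, the second GFP sample was level with the lowest sXBP1 sample; after normalization the groups did not overlap. The change was small, 0.18 ± 0.04 (95% interval 0.10 to 0.26; limma adjusted p = 0.00523), or 1.13-fold, and it did not pass without further normalization (limma adjusted p = 0.137); after median centring it was 0.30. Another 4 probe sets are shared between Tmed10 and its pseudogene Tmed10-ps, and their signal cannot be assigned to either. Of these 2 were higher, by 0.37 ± 0.04 (limma adjusted p = 1.4e-04) and 0.50 ± 0.08 (limma adjusted p = 0.00121), and the changes of all 4 lay between 0.14 and 0.50.

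**Figure D2:**
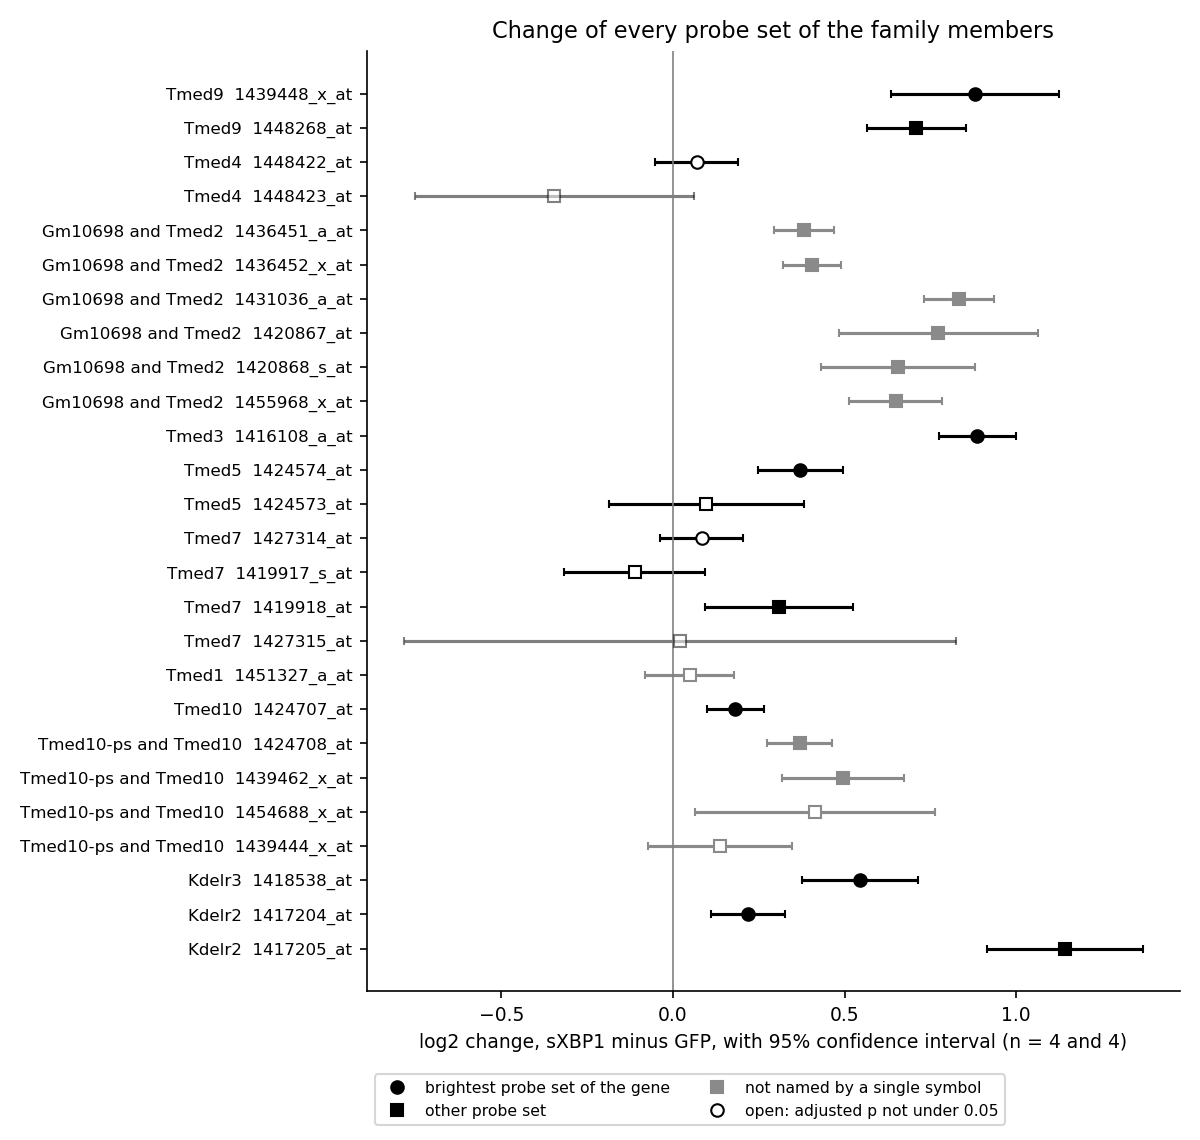
Log2 change, sXBP1 minus GFP, of every probe set of the members (points) with its 95% confidence interval (bars, n = 4 arrays in each group), grouped by class from alpha at the top to the KDEL receptors at the bottom. Circles are the brightest probe set of a gene, squares are other probe sets, grey squares are probe sets not named by a single symbol, open symbols did not pass the threshold, and pale symbols were not present on all 8 arrays. The filled symbols all lie to the right of 0, and the 2 Kdelr2 probe sets stand apart from each other.

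Both KDEL receptors on the list rose. Kdelr3 had signals of 2413, 2405, 2956 and 3177 in sXBP1 samples, against 1786, 1928, 1913 and 2020.1 in GFP samples. The groups did not overlap, although the sXBP1 samples formed a lower and a higher pair, the same pairs as in the correlations between whole arrays. The change was 0.54 ± 0.08 (95% interval 0.38 to 0.71; limma adjusted p = 4.9e-04), or 1.46-fold.

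Kdelr2 had 2 probe sets that rose by different amounts. The brighter gave 1525, 1645, 1685 and 1795 in sXBP1 and 1389.7, 1545, 1386 and 1546 in GFP samples, where the lowest sXBP1 sample was just below the 2 highest GFP samples before normalization. Its change was 0.22 ± 0.05 (95% interval 0.11 to 0.33; limma adjusted p = 0.00747), and it did not pass without further normalization (limma adjusted p = 0.107). The dimmer gave 993, 1075, 1262 and 1497 in sXBP1 and 561, 553, 484 and 639 in GFP samples, without overlap, and a change of 1.14 ± 0.10 (95% interval 0.92 to 1.37; limma adjusted p = 3.0e-05), or 2.21-fold. The 2 intervals do not meet, and no probe sequence was used to place the probe sets on the transcript.

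The order of the receptors depended on the probe sets taken. On the brightest probe sets the change of Kdelr3 exceeded that of Kdelr2 by 0.33 ± 0.07 (exact permutation p = 0.0286, adjusted over 5 pairs p = 0.0357). With the mean of both Kdelr2 probe sets, Kdelr2 changed by 0.68 and the difference turned to -0.14 (adjusted p = 0.0714), so no order of these 2 receptors holds on both measures. Kdelr1, the other receptor gene of this family and not on the list, gave 2943, 2913, 2736 and 3358 in sXBP1 and 2681, 3064, 2510.0 and 3021 in GFP samples. It changed by 0.12 ± 0.05 (limma adjusted p = 0.134; 0.00864 after median centring). Of the other family genes, Tmed8 changed by -0.16 ± 0.17 (limma adjusted p = 0.601) at a signal of 38.9 to 58.4 in sXBP1 and 48.2 to 74.9 in GFP samples, Tmed6 was present on no array, and Tmed11 was not in the authors' table that holds the present calls.

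The mean of the members was raised in each sXBP1 sample. Taken as the normalized log2 value of each of the 8 members above its own GFP mean, the mean over members was 0.36, 0.33, 0.47 and 0.46 in the 4 sXBP1 samples, against 0.01, -0.06, 0.00 and 0.05 in the 4 GFP samples. The members were unequal in every sXBP1 sample: Tmed3 stood 0.83 to 0.995 and Tmed9 0.64 to 1.05 above the GFP mean, while Tmed4 stood between 0.00 and 0.11 and Tmed7 between -0.01 and 0.19. Tmed9 also varied most among the GFP samples, between -0.30 and 0.14. In the authors' deposited table, whose fold is the ratio of group means, the representative probe sets of the same members ran from 1.82 for Tmed3, 1.80 for Tmed9 and 1.43 for Kdelr3 down to 1.05 for Tmed7 and 1.01 for Tmed4.

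**Figure D3:**
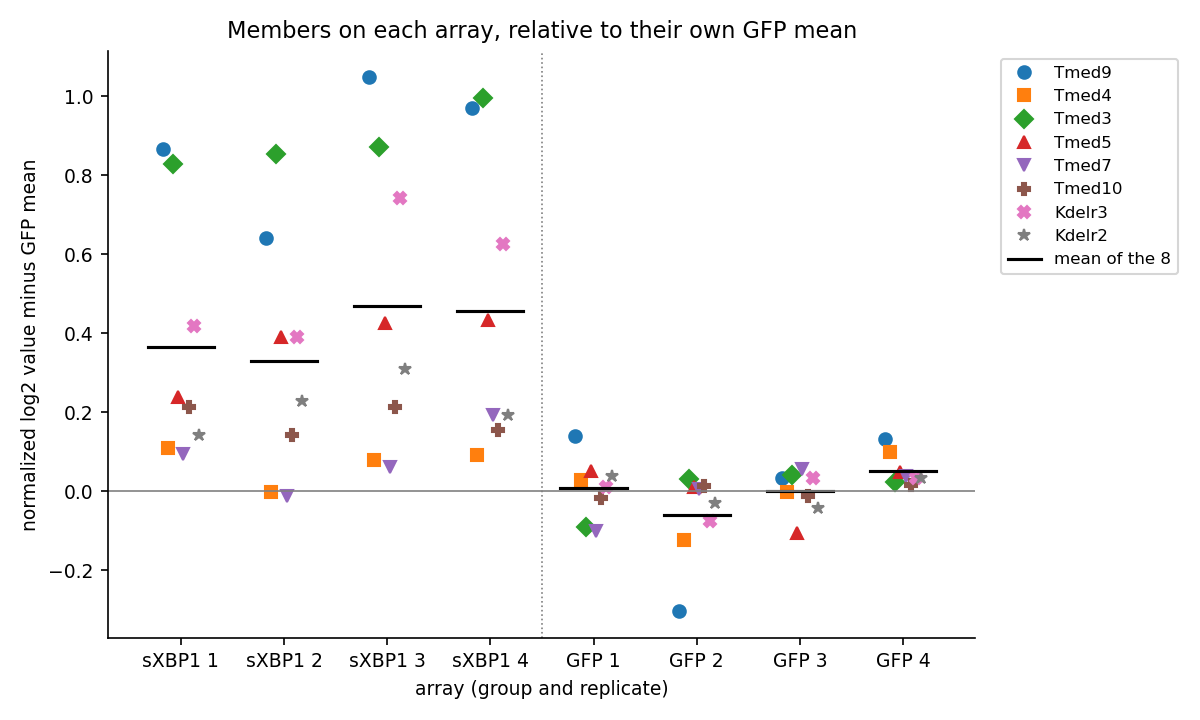
Normalized log2 value of each measured member on each array minus that member's mean over the 4 GFP arrays (vertical axis), for sXBP1 arrays 1 to 4 and GFP arrays 1 to 4; bars are the mean of the 8 members. The sXBP1 bars stand at 0.33 to 0.47 and the GFP bars at -0.06 to 0.05, with Tmed9 and Tmed3 at the top of every sXBP1 array and Tmed4 and Tmed7 at the bottom of the first 3.

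The coats that carry these receptors were measured as lists of the same pathway. The shares over all 12393 genes, to set beside the counts of each list, were 12.9% higher and 14.4% lower. Of 12 measured genes of the COPII coat, which buds vesicles from the ER, 7 rose and 1 fell, with a median change of 0.30. With the deposited values 5 rose and 0 fell (median 0.22), and after median centring 9 rose and 0 fell (median 0.37). Preb, the exchange factor that loads Sar1 at ER exit sites, rose by 1.47 ± 0.08 (SE; limma adjusted p = 2.1e-06). Sec23b, an inner coat subunit, rose by 1.35 ± 0.07 (limma adjusted p = 1.3e-06), and Sec24d, a cargo-binding subunit to which p24 proteins can attach, by 0.75 ± 0.07 (limma adjusted p = 5.7e-05). Its paralog Sec24c fell by 0.16 (limma adjusted p = 0.0249), which did not pass with the deposited values (adjusted p = 0.0787) or after median centring (adjusted p = 0.437).

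All 9 genes listed for the COPI coat, which returns p24 proteins and KDEL receptors to the ER, were measured. Of these, 6 rose and 2 fell, with a median of 0.23. With the deposited values 4 rose and 2 fell, after median centring 6 rose and 1 fell, and with the mean of all probe sets 7 rose and 2 fell. Copb1 rose by 0.59 ± 0.05 (limma adjusted p = 1.4e-05), Copb2 by 0.36 ± 0.04 (limma adjusted p = 6.3e-05) and Copg1 by 0.43 ± 0.06 (limma adjusted p = 5.3e-04). The genes that fell were alternative subunits. Copg2, the paralog of Copg1, had a signal of 1286 ± 59.5 in sXBP1 and 1783 ± 132 in GFP samples (SD, n = 4 each) and changed by -0.42 ± 0.05 (limma adjusted p = 3.0e-04). Copz2, the paralog of Copz1, changed by -0.34 ± 0.09 (limma adjusted p = 0.0213; 0.0504 after median centring), while Copz1 rose by 0.13 ± 0.04 (limma adjusted p = 0.0467).

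ARF GTPases recruit COPI to the membrane, and ARF1 is recruited in part through p24 tails. Of 8 genes of this cycle 4 rose and 1 fell, with a median of 0.25. Arfgap3, which stimulates GTP hydrolysis by ARF1, rose by 0.80 ± 0.06 (limma adjusted p = 6.6e-06), Gbf1, the exchange factor of the early Golgi, by 0.50 ± 0.05 (limma adjusted p = 6.5e-05), and Arf4 by 0.43 ± 0.06 (limma adjusted p = 2.9e-04, the same call on 2 of 4 probe sets; 0.27 with their mean). Arf3 fell by 0.28 on its brightest of 5 probe sets (limma adjusted p = 0.00558) and missed the threshold when its probe sets were averaged (adjusted p = 0.412).

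Of 12 other measured cargo receptors of the ER and Golgi, 5 rose, 1 fell and 6 did not pass, with a median of 0.22. Lman1 and Mcfd2, whose products form a receptor for coagulation factors, rose by 0.84 ± 0.08 (limma adjusted p = 3.2e-05) and 0.67 ± 0.04 (limma adjusted p = 2.7e-06), and Surf4, a receptor for soluble cargo, by 0.69 ± 0.05 (limma adjusted p = 1.3e-05, on 5 of 5 probe sets). Ergic1 changed by -0.44 ± 0.07 (limma adjusted p = 0.00141) on its brightest probe set, a call shared by 2 of its 5, and did not pass with their mean (adjusted p = 0.524). Of 5 measured SNAREs and tethers that receive COPI vesicles at the ER, 4 rose, with a median of 0.26, and Bnip1 changed by 0.01 ± 0.08 (limma adjusted p = 0.952). Zw10, a tether subunit, rose by 1.03 ± 0.11 (limma adjusted p = 9.3e-05), and the SNAREs Stx18 and Sec22b rose by 0.66 ± 0.07 (limma adjusted p = 6.2e-05) and 0.26 ± 0.05 (limma adjusted p = 0.00179).

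Cargo genes were also listed, and no test set the lists against each other. Of 6 ER proteins with a KDEL-type end, the ligands of the KDEL receptors, 5 rose, with a median of 0.28. The disulphide isomerases Pdia4 and Pdia6 rose by 0.88 ± 0.08 (limma adjusted p = 3.0e-05) and 0.59 ± 0.07 (limma adjusted p = 1.2e-04), each on 1 of 2 probe sets, and Hspa5, the chaperone BiP, by 0.27 ± 0.04 (limma adjusted p = 0.00127). Hsp90b1 changed by 0.29 ± 0.10 and did not pass (limma adjusted p = 0.052), on 1 of 2 probe sets. All 6 genes passed after median centring, with a median of 0.45 and Hspa5 at 0.47, and all 6 passed when each gene was averaged over its probe sets, with a median of 0.35 and Pdia4 at 0.46 (adjusted p = 0.0118). Of 6 measured genes for GPI anchor remodelling and GPI-anchored proteins, the cargo of p24 complexes, 1 fell and the other 5 did not pass, with a median of 0.00; Gpc3 was present on no array. With the mean of all probe sets 1 rose and 1 fell. The one that fell was Thy1, by 0.17 (limma adjusted p = 0.0478), which did not pass with the deposited values (adjusted p = 0.118) or after median centring (adjusted p = 0.441).

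**Figure D4:**
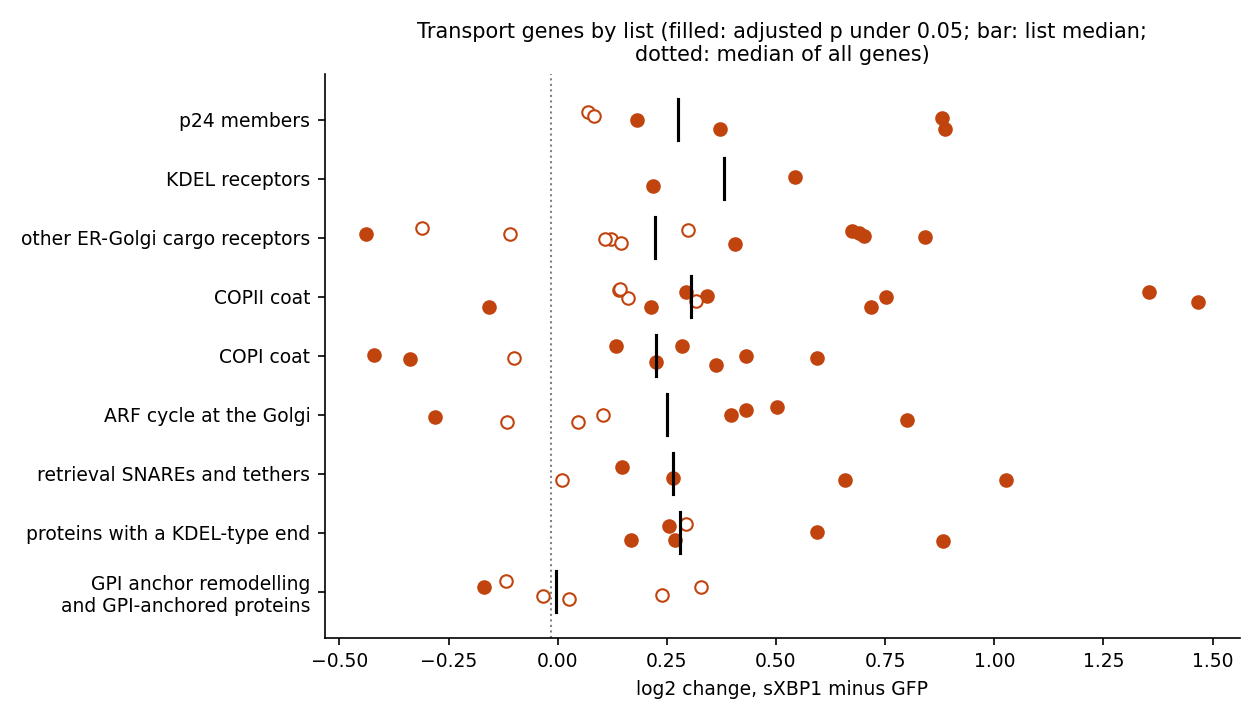
Log2 change, sXBP1 minus GFP (horizontal axis), of the measured members and of the other genes of the transport pathway, 1 point for each gene's representative probe set; filled points passed the threshold, bars are list medians and the dotted line is the median of all genes. The medians of the p24 genes, KDEL receptors, coats, ARF cycle, cargo receptors, SNAREs and KDEL-type proteins lie between 0.22 and 0.38, and that of the GPI list is at 0.00.

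The 5 genes outside the members whose values over the 8 arrays were most like the mean of the 8 members were Mogs, Ddx56, Ighm, Praf2 and Araf, with Pearson's r of 0.996 to 0.998. This likeness is a description over 8 arrays in which the difference between groups makes up most of the variation. Mogs, the glucosidase that makes the first cut in the sugar of new glycoproteins, had a signal of 2132 ± 381 in sXBP1 and 973.8 ± 90.6 in GFP samples (SD, n = 4 each) and rose by 1.16 ± 0.09 (limma adjusted p = 1.4e-05). Ddx56, an RNA helicase, rose by 0.88 ± 0.08 (limma adjusted p = 3.6e-05), Praf2, a membrane protein of the ER, by 0.63 ± 0.05 (limma adjusted p = 1.4e-05), and the kinase Araf by 0.54 ± 0.06 (limma adjusted p = 9.3e-05). Ighm had a signal of 879.3 ± 424 in sXBP1 samples, against 24.23 ± 17.3 in GFP samples, where it was called present on no array, and 2 of its 11 probe sets shared the call.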

How the data were processed

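The authors deposited intensity values per probe set on a linear scale. MAS5 is named for them in the submitters' processing notes, and its version and scaling are not stated there. Of 22690 deposited probe sets, 64 controls were left out. The authors' deposited table of 18394 probe sets repeats the same signals with present calls, a fold, which is the signed ratio of group means, and a score, which was not used. Groups came from the sample titles. Platform annotation gave 1 symbol for 20380 probe sets, several for 691 and none for 1555. Values were taken as log2(signal + 16), where the added 16 understates changes of dim genes. They were quantile normalized and fitted in R 4.3.3 using limma 3.58.1 (two-sided, eBayes with an intensity trend). Differences of change between 5 pairs of members used exact permutation tests, whose smallest p for 4 against 4 samples is 0.0286. That p does not grade the size of a difference, and the adjustment covered only the 5 pairs run. Another 4 planned pairs with Tmed1 or Tmed2 were not run, since no probe set carried only that symbol. For the same reason the mean over members covers 8 of 10 genes. Members, lists and named genes (every member, Xbp1, the 3 smallest adjusted p-values and every fall of each list, and the 5 genes most like the members) were chosen with earlier results of these data known. The list of KDEL-type proteins is a short textbook list, and no protein or probe sequence was used. Copg1, Copz1, Bnip1 and Hsp90b1 and the macrophage markers, and Gpc3, were named after their values were seen. Alternatives were other scalings, pseudocounts of 1 and 64, a filter on present calls, no variance trend, a replicate block, the mean of all probe sets of a gene, and each replicate left out. The number of arrays limits the precision. Figures used matplotlib 3.10.9.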

Additional observations from a re-analysis of the deposited data

Results flagged for a closer look

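In 6 of 116 groups of 4 arrays, taken over the probe sets of the family genes and of the other genes named by the rule, 1 array lay apart from the other 3, with a gap to the nearest of them that, as a part of the group's range, exceeded Dixon's 95% critical value. Chance alone gives this for about 5% of such groups. Among the members, the first GFP sample was the lowest for Tmed3, at a normalized log2 value of 11.22 against 11.33 to 11.35 in the other 3, a gap of 0.87 of the range. For 1 probe set shared by Tmed2 and Gm10698 the first GFP sample was again the lowest, at 10.36 against 10.55 to 10.58 (0.884 of the range). For another of these the fourth sXBP1 sample was the lowest, at 10.90 against 10.96 to 10.97 (0.842 of the range). The sXBP1 and GFP samples did not overlap for Tmed3 or for either of these probe sets. Tmed6, present on no array, was lowest in the fourth GFP sample, with a signal of 6.2 (0.86 of the range). The COPI subunit gene Copz2 was lowest in the second GFP sample, at 10.83 against 10.86 (0.875 of the range). Ergic1 was highest in the third sXBP1 sample, at 10.28 against 10.04 to 10.07 (0.862 of the range).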

How the results depend on the processing

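Of the 8 measured members, 6 passed the threshold here and 6 passed with each of the 8 samples left out in turn. Without further normalization 4 passed (Tmed10 at an adjusted p of 0.137 and Kdelr2 at 0.107 were lost), after median centring 7 (Tmed7 was gained), and with the mean of all probe sets of a gene 5 (Tmed5 was lost). With Tmed1 and Tmed2 also counted, an alternative chosen after seeing the data, 7 passed. Of their 15 probe sets, 9 passed here, 6 without further normalization, 10 after median centring and 8 to 9 with a sample left out. The median change of 0.29 was 0.41 after median centring, 0.39 with the mean of all probe sets, and 0.27 to 0.33 with a sample left out. The difference Kdelr3 minus Kdelr2 was -0.136 with the mean of all probe sets, against 0.33 here; the alternative adds the second Kdelr2 probe set. Tmed3, Tmed9 and Kdelr3 passed under all 16 alternatives run for them, with changes of 0.85 to 1.002, 0.78 to 0.99 and 0.48 to 0.65. Tmed4 passed under none of 16, and Tmed7 under 1. With 4 against 3 samples an exact test cannot reach the threshold, so only the differences themselves were recomputed there. With the replicate number as a replicate block, 6 members and 8 probe sets passed and the median change was 0.29, and exact sign-flip permutation tests over 4 same-numbered pairs cannot go below p = 0.125. Deviations of same-numbered samples correlated at 0.123, 0.036, -0.057 and 0.085. The labels do not say whether same-numbered samples belong together, and these values cannot decide it. Dim probe sets, such as the second of Tmed4, are limited by signal over background.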
